A study of Homo sapiens with 6 samples.

Results

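The genes described are 48 components of the DNA replication machinery, taken as the probe sets whose platform annotation gives a single gene symbol that belongs to this textbook list. All 48 had such a probe set, 125 in all, out of 18132 genes on the array, and all 48 were among the 11715 genes whose signal was high enough to test. RNA came from HMEC-1, a line of human endothelium from small skin vessels that a viral large T antigen made immortal, kept in serum-free medium. Of the 6 arrays, 3 came from PBS-treated cultures and 3 from cultures with EPC-Exos at 1e+11 particles per mL, in both cases after 24 hours. EPC-Exos, a name the labels do not spell out, are known from the study to be exosomes, small membrane vesicles, of human endothelial progenitor cells. The comparison asks how the vesicles change gene expression of the recipient cells, and here how they change the genes that copy DNA.

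Replication is prepared before S phase. The origin recognition complex, with CDC6 and CDT1, loads rings of MCM2 to MCM7 onto origins, and geminin (GMNN) blocks CDT1 afterwards. At firing, CDC45 and the GINS tetramer turn the MCM ring into the active helicase, polymerase alpha-primase lays primers, polymerases epsilon and delta extend them with the PCNA clamp that replication factor C loads, and RPA coats the unwound strand. Many of these genes are transcribed under E2F factors, which pocket proteins such as RB1 hold in check. Large T antigens of this kind bind the pocket proteins.

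Each array gave a log2 signal for every probe set, so a change of 1 on this scale is a doubling. Array medians lay between 6.24 and 6.34, and arrays correlated at 0.997 within a group and at 0.988 to 0.989 between groups. The labels do not say whether replicates were separate cultures and name no batch, so p-values measure the spread between these arrays only, and the treatment and any batch that follows it cannot be told apart. The difference between 3' and 5' control probe sets for ACTB, a sign of RNA integrity, was 0.51 with PBS and 0.52 with EPC-Exos. Of 12 endothelial markers, 8 lay above the highest mean signal of the control probe sets that match no human transcript, 4.97. CDH5 (VE-cadherin, 4.70 with PBS and 4.49 with EPC-Exos), TEK (4.03 and 4.09), CLDN5 (3.57 and 3.67) and EMCN (3.48 and 3.61) did not. PECAM1 lay close to that level (5.18 and 5.23). Of 7 fibroblast and mural markers, all 4 that could be tested fell, as did 27.3% of all genes tested. Apart from COL1A1, PDGFRB went from 7.75 with PBS to 6.46 with EPC-Exos, DCN from 7.61 to 5.40 and ACTA2 from 7.83 to 5.97. Of those under the signal filter, LUM went from 5.97 with PBS to 3.67 with EPC-Exos. PDGFRA (4.19 and 4.21) and COL1A2 (4.57 and 4.76) did not fall. The log2 of the list's summed signal went from 11.40 to 11.58 on the PBS arrays to 10.57 to 10.73 on the EPC-Exos arrays. COL1A1 (11.07 and 10.40), the brightest of the list, weighs most in that sum. Of the 7 endothelial markers that could be tested 3 rose and 0 fell, where 21.7% of all genes tested rose and 27.3% fell. Their list's summed signals were 10.96 to 11.14 and then 11.47 to 11.48. Of 5 leukocyte markers measured, PTPRC lay at 3.30 and 3.44, below the control level, and CD68 was the single gene that could be tested and rose, with summed signals of 8.15 to 8.21 and 8.72 to 8.85. Neither of the 2 testable markers among 4 epithelial genes passed, with summed signals of 7.25 to 7.49 and 7.38 to 7.46. The part of these marker changes in the results below was not tested.

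The promoters of the 4 members with the largest called changes for which a window was given are shown first, because a short word in them is counted over all members below. They are RefSeq windows of GRCh38.p14 from 250 bases before to 50 bases after the transcription start, written along the gene's strand. Capitals mark E2F-type words, any of TTTGGCGC, TTTCCCGC, TTTCGCGC or TTTGCCGC on either strand. MCM6 lies at chr2:135876394-135876693 on the minus strand, TIPIN at chr15:66386668-66386967 (minus), PCNA at chr20:5126573-5126872 (minus) and MCM2 at chr3:127598161-127598460 (plus). MCM6, PCNA and MCM2 fell and TIPIN rose.
MCM6: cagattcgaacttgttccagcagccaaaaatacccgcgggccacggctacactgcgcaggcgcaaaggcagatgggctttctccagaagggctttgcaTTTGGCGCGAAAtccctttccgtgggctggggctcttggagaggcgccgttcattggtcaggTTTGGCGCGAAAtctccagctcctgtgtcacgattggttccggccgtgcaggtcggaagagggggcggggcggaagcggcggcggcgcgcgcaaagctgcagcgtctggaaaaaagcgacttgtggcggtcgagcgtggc
TIPIN: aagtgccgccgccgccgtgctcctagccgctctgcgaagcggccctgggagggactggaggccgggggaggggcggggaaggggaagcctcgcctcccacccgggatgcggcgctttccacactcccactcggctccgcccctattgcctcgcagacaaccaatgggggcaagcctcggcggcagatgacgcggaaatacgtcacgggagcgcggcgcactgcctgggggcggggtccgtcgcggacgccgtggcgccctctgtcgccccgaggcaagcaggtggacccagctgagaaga
PCNA: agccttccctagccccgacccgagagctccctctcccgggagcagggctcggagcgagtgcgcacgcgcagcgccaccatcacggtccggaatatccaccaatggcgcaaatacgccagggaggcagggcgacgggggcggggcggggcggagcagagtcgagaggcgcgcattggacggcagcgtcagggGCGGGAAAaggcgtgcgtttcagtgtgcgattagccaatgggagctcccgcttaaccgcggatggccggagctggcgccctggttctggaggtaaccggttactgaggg
MCM2: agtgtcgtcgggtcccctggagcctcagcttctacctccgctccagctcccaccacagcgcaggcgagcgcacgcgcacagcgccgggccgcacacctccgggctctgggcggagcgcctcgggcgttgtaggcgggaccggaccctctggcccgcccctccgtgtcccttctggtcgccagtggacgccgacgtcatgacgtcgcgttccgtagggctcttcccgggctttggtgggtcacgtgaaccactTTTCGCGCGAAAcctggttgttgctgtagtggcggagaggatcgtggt
In MCM6 the word occurs at a pair of places, each time on both strands so that the copies overlap, at positions -152 to -141 and -90 to -79 relative to the start. PCNA holds it at -59 to -52, and MCM2 holds overlapping copies from 3 to 14 bases after the start. The TIPIN window holds none of the 4 words.

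The machinery did not move as a block. After EPC-Exos, 17 of the 48 members fell, 8 rose and 23 did not pass an adjusted p under 0.05 in the limma fit over all genes (Benjamini-Hochberg). Over all 11715 genes 49.1% were called, 27.3% lower and 21.7% higher, against 52.1%, 35.4% and 16.7% of the members, so the share of members called was near that of all genes. The members' median log2 change was -0.07, beside -0.01 over all genes tested. By complex, every subunit of the MCM2 to MCM7 ring and of RPA fell, as did PCNA, CDC6 and CDT1, while MCM10, 3 subunits of the origin recognition complex, PRIM1, POLD2, POLE2 and TIPIN rose. The changes were small. Only MCM6 (1.59-fold lower) and TIPIN (1.51-fold higher) met the series' own rule of 1.5-fold with p below 0.05 before adjustment, as 9.89% of all genes did. The 3 EPC-Exos arrays lay below all 3 PBS arrays for 20 members (41.7%, against 30.2% of all genes) and above them for 8 (16.7%, against 25.5%). Every called member was among these, so the lack of overlap stated gene by gene below adds little to a call. In RNA of whole cultures, fewer cells in a phase of the cycle, less RNA per cell and RNA brought in by the vesicles cannot be told apart.

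**Figure D1:**
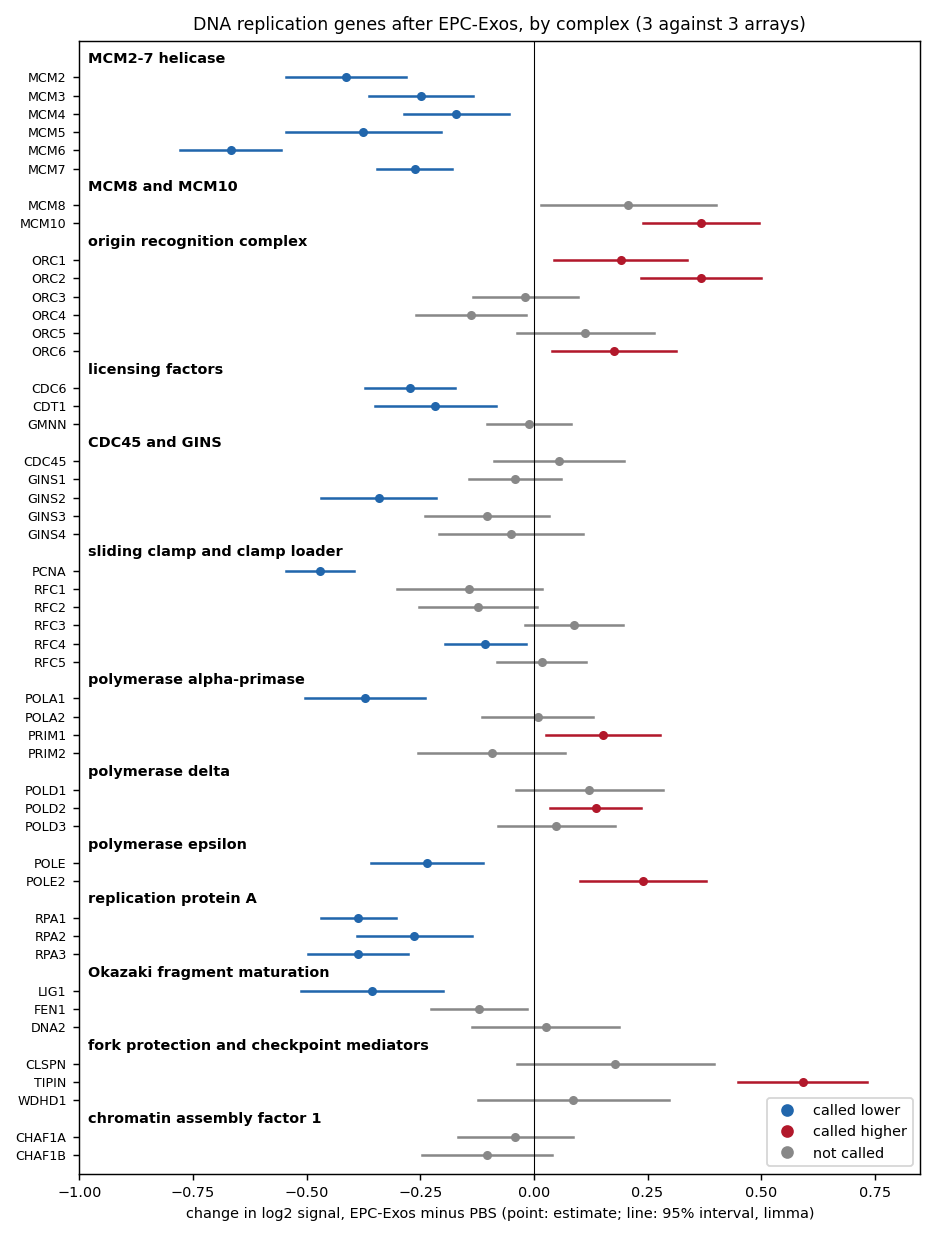
Change in log2 signal, EPC-Exos minus PBS, for each of the 48 members grouped by complex, with points for the estimate and lines for the 95% interval of the limma fit (3 against 3 arrays). All 6 subunits of the MCM2 to MCM7 helicase and all 3 of RPA lie left of 0, while MCM10, ORC1, ORC2, ORC6, PRIM1, POLD2, POLE2 and TIPIN are called to the right of it.

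The MCM2 to MCM7 helicase, the ring that unwinds DNA ahead of the fork, fell in all 6 subunits, by 0.17 (MCM4) to 0.67 (MCM6) on the log2 scale. MCM6 signals were 10.38, 10.44 and 10.46 on the PBS arrays and 9.79, 9.77 and 9.72 on the EPC-Exos arrays. The groups lay well apart, and the change was -0.67 ± 0.052 (SE, n = 3 per group; adjusted p = 2.19e-08). MCM2 gave 9.89, 9.99 and 10.10 with PBS and 9.53, 9.58 and 9.62 with EPC-Exos, a change of -0.41 ± 0.062 (adjusted p = 3.52e-05). MCM5, the subunit that with MCM2 forms the gate of the ring, gave 7.88, 7.97 and 8.13 and then 7.65, 7.62 and 7.59 (-0.38 ± 0.080, adjusted p = 0.000946). MCM7, which forms a catalytic core with MCM4 and MCM6, went from 12.23, 12.28 and 12.36 to 12.003, 12.03 and 12.05 (-0.26 ± 0.039, adjusted p = 2.96e-05). In none of these 4 did the groups overlap, which holds for every called member. MCM3 changed by -0.25 ± 0.054 (adjusted p = 0.00106) and MCM4 by -0.17 ± 0.054 (adjusted p = 0.0157), again without overlap. The MCM4 fall was the least certain: its probe set is of a kind (_s_at) that can bind related transcripts, and the call was lost without such probe sets, with arrays centred on the median, without the variance trend, or when replicate 1 of PBS, or replicate 1 or 3 of EPC-Exos, was left out (adjusted p up to 0.0816).

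The MCM relatives outside the ring that are members, MCM8 and MCM10, both had changes above 0, and MCM10 alone was called. MCM10, which binds the helicase when origins fire, rose from 9.08, 9.01 and 8.97 to 9.37, 9.40 and 9.40 (0.37 ± 0.060, adjusted p = 8.47e-05), and the groups lay apart. MCM8, which acts with MCM9 in recombination repair, had 9.13, 8.84 and 8.67 with PBS and 9.04, 9.13 and 9.09 with EPC-Exos. PBS replicate 1 was as high as the treated arrays, and the change of 0.21 ± 0.091 did not pass (adjusted p = 0.0706). Without PBS replicate 1 it was 0.33 and called higher (adjusted p = 0.000816), and without PBS replicate 3 it was 0.10. MCM9, from a list of replication regulators that are not members, fell by 0.61 (-0.61 ± 0.083, adjusted p = 1.25e-05). That value is from the brightest of its 3 probe sets, and the others are not given here.

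**Figure D2:**
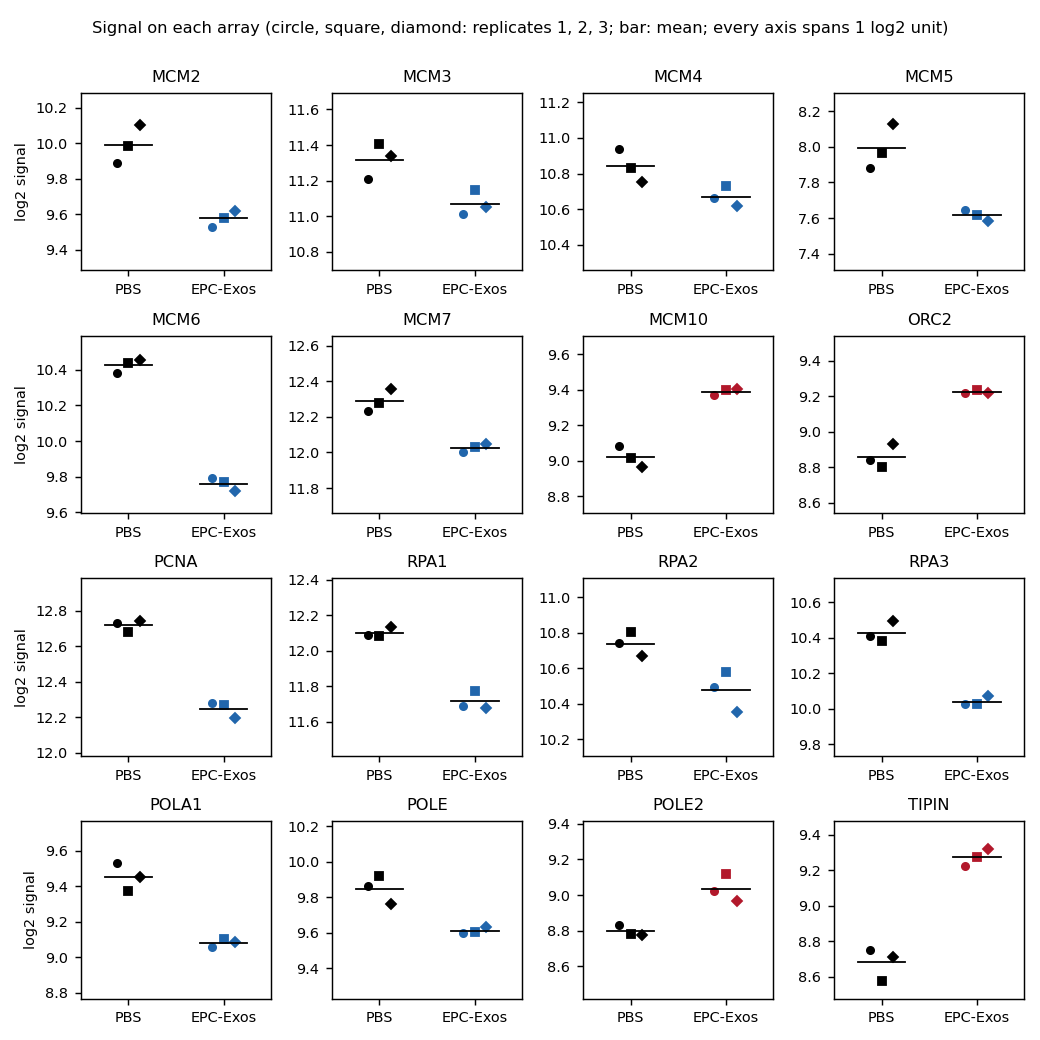
Log2 signal on each of the 6 arrays for 16 members, with symbols for the replicates, bars for the group means and every vertical axis spanning 1 log2 unit. All 16 were picked from the called members, so the lack of overlap in every panel comes with the choice. Among all 48 members the groups overlap in 20. MCM6 shows the widest gap downward, from a mean of 10.43 to 9.76, and TIPIN the widest upward, from 8.68 to 9.27.

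In the origin recognition complex, which marks origins and recruits the loaders, 3 of 6 subunits rose and 3 did not pass. The share called, 50%, was near the 49.1% of all genes, of which 21.7% were called higher. ORC2 rose from 8.84, 8.80 and 8.93 to 9.22, 9.23 and 9.22 (0.37 ± 0.062, adjusted p = 0.000116). The 3 treated arrays were nearly identical and all above the PBS arrays. ORC1, the ATPase subunit that recruits CDC6, had 7.95, 8.01 and 8.01 and then 8.16, 8.21 and 8.16 (0.19 ± 0.069, adjusted p = 0.0313), and ORC6 had 10.35, 10.27 and 10.06 and then 10.43, 10.37 and 10.41 (0.18 ± 0.065, adjusted p = 0.0328). Each of these 2 calls was lost when certain arrays were left out: ORC1 without PBS replicate 1 or 2 or any EPC-Exos replicate (adjusted p up to 0.0844), ORC6 without PBS replicate 3 or any EPC-Exos replicate, under each rescaling of the arrays, and without the variance trend (up to 0.178). ORC1 has a single probe set, of the kind (_x_at) that can bind related transcripts. ORC4 changed by -0.14 ± 0.057, with the treated arrays all below the PBS arrays, and did not pass (adjusted p = 0.0539). It was called lower under 5 of 17 alternatives, namely quantile and cyclic loess normalization, the stricter signal filter, the replicate block and leaving out PBS replicate 2 (adjusted p down to 0.0248), and changed by -0.01 without _x_at and _s_at probe sets. ORC3 (-0.02, 95% interval -0.14 to 0.10) and ORC5 (0.11, -0.04 to 0.26) did not pass either, although ORC5 was called higher with the mean of its probe sets (adjusted p = 0.0177).

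The loaders fell. CDC6, the ATPase that completes the loading complex, went from 11.08, 11.04 and 10.96 to 10.74, 10.75 and 10.76 (-0.27 ± 0.047, adjusted p = 0.000124). CDT1, which delivers the MCM ring, went from 8.85, 8.85 and 8.91 to 8.64, 8.65 and 8.67 (-0.22 ± 0.063, adjusted p = 0.00883). The groups were separate for both genes. Their other probe sets gave smaller values, none of them called: -0.092 for CDC6, and -0.057 and -0.0036 for CDT1. With the mean of its probe sets CDT1 changed by -0.09 and lost its call (adjusted p = 0.238). The CDT1 inhibitor GMNN had 11.27, 11.24 and 11.34 with PBS and 11.24, 11.28 and 11.29 with EPC-Exos. These ranges overlap, and the 95% interval of the change ran from -0.10 to 0.08.

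Among the factors that switch the ring on, GINS2 alone passed, 1 of 5 (20%), where 49.1% of all genes were called and 27.3% called lower. Measured by 1 probe set, GINS2 fell from 9.35, 9.39 and 9.41 to 9.01, 9.02 and 9.10 (-0.34 ± 0.060, adjusted p = 0.000158), without overlap. GINS1 (-0.04, 95% interval -0.14 to 0.06), GINS3 (-0.10, -0.24 to 0.03) and GINS4 (-0.05, -0.21 to 0.11), the other subunits of the same tetramer, did not pass, and neither did CDC45 (0.06, -0.09 to 0.20).

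Of 4 members of polymerase alpha-primase, 1 was called lower and 1 higher, and of 2 of polymerase epsilon likewise 1 each. Over all genes 27.3% were called lower and 21.7% higher, so calls both ways cannot be read as particular to these complexes. POLA1, the catalytic subunit of polymerase alpha, fell from 9.53, 9.37 and 9.45 to 9.05, 9.10 and 9.09 (-0.37 ± 0.062, adjusted p = 9.6e-05), while the primase subunit PRIM1 rose from 9.17, 9.23 and 9.29 to 9.37, 9.39 and 9.38 (0.15 ± 0.059, adjusted p = 0.0443). POLE, the catalytic subunit of the leading-strand polymerase epsilon, fell from 9.86, 9.92 and 9.76 to 9.60, 9.60 and 9.63 (-0.24 ± 0.058, adjusted p = 0.0029), and its partner subunit POLE2 rose from 8.83, 8.78 and 8.77 to 9.02, 9.12 and 8.97 (0.24 ± 0.065, adjusted p = 0.00568). In each of these 4 genes the treated arrays lay wholly on 1 side of the PBS arrays. The PRIM1 call was weak: it was lost without the signal filter, without the variance trend, or when any array other than PBS replicate 3 was left out (adjusted p up to 0.117). POLE was measured by a single probe set, of the _s_at kind. POLA2 (0.01, 95% interval -0.11 to 0.13) and PRIM2 (-0.09, -0.26 to 0.07) did not pass.

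In polymerase delta, which extends Okazaki fragments, POLD2 rose from 10.85, 10.96 and 10.94 to 11.00, 11.08 and 11.07 (0.14 ± 0.047, adjusted p = 0.0246). That call was lost without _x_at and _s_at probe sets, without the variance trend, and when replicate 1 of PBS, or replicate 2 or 3 of EPC-Exos, was left out (adjusted p up to 0.0957). POLD1 (0.12, 95% interval -0.04 to 0.28) and POLD3 (0.05, -0.08 to 0.18) did not pass. POLD4, the small subunit, from a list of further replisome subunits, fell by 0.59 (-0.59 ± 0.068, adjusted p = 1.98e-06). The POLD4 value is from the brightest of its 3 probe sets, and the others are not given here.

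PCNA, the sliding clamp that tethers polymerases to DNA, had the smallest p of all members. Its signals were 12.73, 12.68 and 12.74 with PBS and 12.28, 12.27 and 12.19 with EPC-Exos. The groups lay far apart against the spread within them, and the change was -0.47 ± 0.035 (1.39-fold, adjusted p = 1.31e-08). A second, dimmer PCNA probe set gave 7.05, 7.13 and 7.09 and then 5.91, 6.28 and 6.10, a change of -0.998 ± 0.10 (adjusted p = 6.48e-07 in the fit of all probe sets), so the size of the fall depends on the probe set. The clamp loader followed little: RFC4 fell from 11.29, 11.34 and 11.33 to 11.23, 11.18 and 11.23 (-0.11 ± 0.042, adjusted p = 0.0436), a call lost under 9 of 17 alternatives, among them leaving out any array but PBS replicate 1. RFC1 (-0.14, 95% interval -0.30 to 0.02), RFC2 (-0.12, -0.25 to 0.01), RFC3 (0.09, -0.02 to 0.20) and RFC5 (0.02, -0.08 to 0.12) did not pass. Without PBS replicate 2 the RFC1 change was -0.23 and was called (adjusted p = 0.00849).

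RPA, the complex that protects unwound DNA strands, fell in all 3 subunits. RPA1 went from 12.09, 12.08 and 12.13 to 11.69, 11.77 and 11.68 (-0.39 ± 0.039, adjusted p = 4.45e-07), and RPA3 from 10.41, 10.38 and 10.49 to 10.03, 10.02 and 10.07 (-0.39 ± 0.052, adjusted p = 1.09e-05). RPA2 went from 10.74, 10.80 and 10.67 to 10.49, 10.58 and 10.36 (-0.26 ± 0.059, adjusted p = 0.00144). No subunit's groups overlapped. LIG1, the ligase that seals Okazaki fragments, also fell, from 8.87, 9.04 and 9.10 to 8.56, 8.69 and 8.69 (-0.36 ± 0.074, adjusted p = 0.000737). The flap nuclease FEN1 gave -0.12 ± 0.050, with all treated arrays below the PBS arrays, and did not pass (adjusted p = 0.0557). It was called lower under 5 of 17 alternatives, both quantile and cyclic loess normalization among them (adjusted p down to 0.0261). The nuclease and helicase DNA2 gave 0.03 (95% interval -0.14 to 0.19).

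By the brightest probe set of each member, the largest rise was in TIPIN, which with TIMELESS holds the fork together when it stalls. Its signals were 8.75, 8.57 and 8.71 with PBS and 9.22, 9.27 and 9.32 with EPC-Exos. Every treated array lay above every PBS array, and the change was 0.59 ± 0.067 (adjusted p = 1.7e-06). TIMELESS, the partner of TIPIN in the list of regulators, moved the other way, from 9.49 ± 0.069 to 9.06 ± 0.073 (SD, n = 3). The change was -0.43 ± 0.064 (adjusted p = 3.3e-05), from the brighter of its 2 probe sets, and the other is not given here. CLSPN, the checkpoint mediator claspin, had 7.56, 7.31 and 7.33 and then 7.37, 7.61 and 7.76. Those ranges overlap, and its change of 0.18 (95% interval -0.04 to 0.40) did not pass, nor did that of WDHD1, which links the helicase to polymerase alpha (0.09, -0.12 to 0.30). Without EPC-Exos replicate 1 the CLSPN change was 0.29 and was called (adjusted p = 0.0355). The histone depositors of chromatin assembly factor 1, CHAF1A (-0.04, -0.17 to 0.09) and CHAF1B (-0.10, -0.25 to 0.04), did not pass either.

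Probe sets that did not represent a gene gave a further view of the same RNA. Of the 125 probe sets of the members, 119 lay above the signal filter, and tested singly with all other probe sets 37 were lower, 16 higher and 66 not called, where 45.8% of all probe sets were called. Of 33 members with several such probe sets, 29 had all changes of 1 sign and 0 had calls in both directions. All 15 called members among them had every probe set on the gene's side of 0, and in 9 every probe set was called. These last counts include the probe set that gave the gene its call. The same counts were not made over all genes, so the agreement cannot be read as particular to the members. LIG1 was the fullest case, with 6 of 6 probe sets called lower between -0.41 and -0.26, and MCM2 and MCM3 had 4 of 4. In MCM4 2 of 5 were called, in MCM7 3 of 4 and in TIPIN 2 of 3, between 0.21 and 0.59. Conversely, a probe set of ORC5 (0.26), of RFC3 (0.22) and of POLD3 (0.25) was called higher although the gene's brightest was not.

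**Figure D3:**
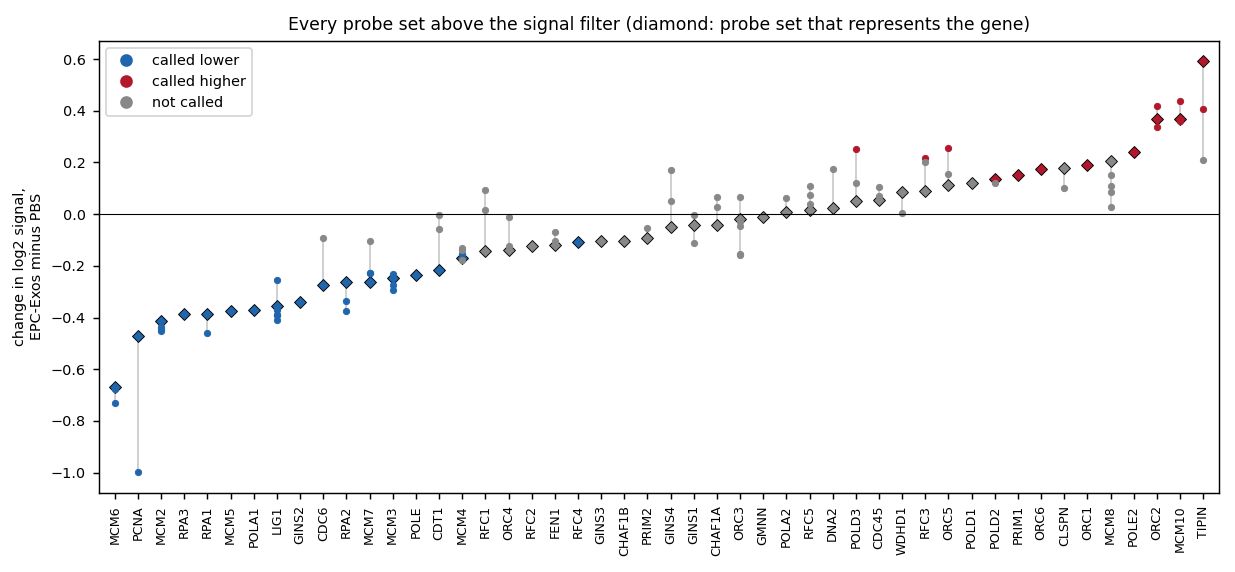
Change in log2 signal, EPC-Exos minus PBS, of the 119 probe sets of the members above the signal filter, with genes in order of their change, diamonds for the probe set that represents the gene and colours for the call in the fit of all probe sets. The probe sets of a called gene lie on the same side of 0; those of PCNA are the farthest apart, at -0.47 and -0.998.

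The promoter windows were compared by the same words. A window was given for 41 members, and the first listed was used for the 8 with several. Any of the 4 E2F-type words stood in 19 of the 41 (46.3%), beside 5.53% of the windows of genes tested and 3.33% of 27305 genes. E2F words are known to be common in replication genes. Within the members, the word stood in 11 of the 13 that fell (84.6%), 7 of the 20 not called (35%) and 1 of the 8 that rose (12.5%), the last being POLE2. Using any listed window of a gene, the counts were 11, 8 and 2. Members that fell with no such word were RPA1 and RFC4; MCM4, MCM5, RPA2 and RPA3 had no window here. All 4 ring subunits with a window, MCM2, MCM3, MCM6 and MCM7, held it. Across the array, of 515 tested genes that hold it and are not members, 31.7% were lower and 21.7% higher, beside 27.7% and 22.1% of the 9125 genes without it. The CCAAT box, bound by NF-Y, stood in 9 of the 13 members that fell, 7 of the 8 that rose and 8 of the 20 not called, and in 36.7% of windows of genes tested. The cell cycle word TTTGAA stood in 0 of 41 and in 9.52% of windows of genes tested. These matches, on either strand and allowed to overlap, describe letters and not bound sites, and no test was made of them.

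**Figure D4:**
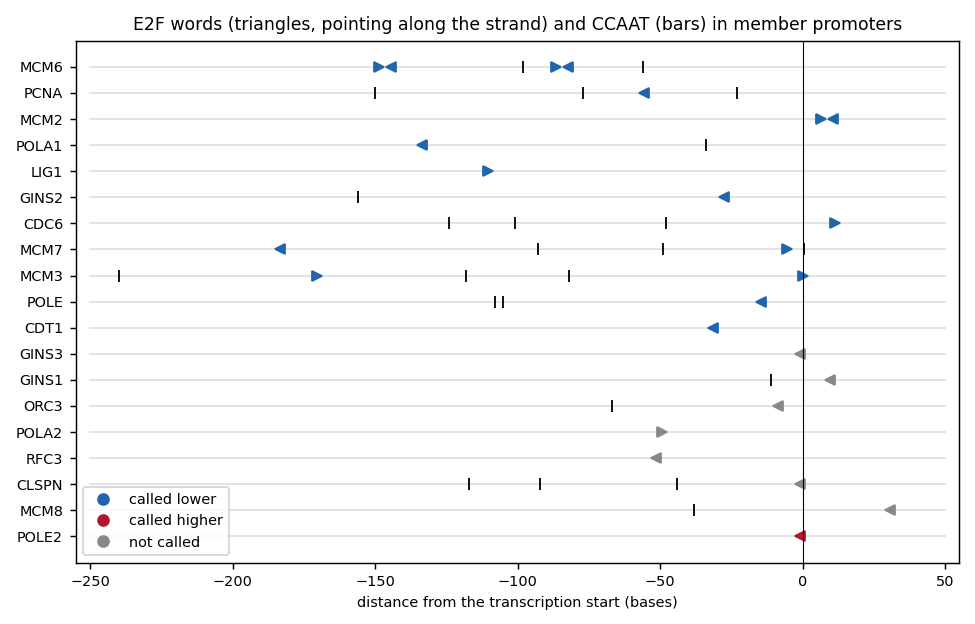
Positions of the E2F-type words (triangles, pointing along the strand of the match) and of CCAAT (bars) relative to the transcription start in the 19 member promoters that hold an E2F-type word, from 250 bases before to 50 after it. Genes are ordered by their change; 11 of these genes are called lower, 7 not called and 1, POLE2, called higher.

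Genes around the machinery, from 6 lists of 88 genes of which 86 were tested, gave 25 that fell, 15 that rose and 46 that did not pass. That is 29.1% lower and 17.4% higher, near the 27.3% and 21.7% of all genes. Each gene of these lists is given by its brightest probe set, and where it has several the others are not given here. In the deoxynucleotide supply 5 of 9 tested genes fell (55.6%, against 27.3% of all genes) and 1 rose (11.1%, against 21.7%). RRM2B, the stress-inducible small subunit of ribonucleotide reductase, fell from 9.11 ± 0.15 to 8.28 ± 0.10 (SD, n = 3; -0.84 ± 0.081, SE, adjusted p = 2.64e-07) and thymidine kinase TK1 from 11.54 ± 0.060 to 11.17 ± 0.041 (-0.37 ± 0.045, adjusted p = 3.52e-06). SAMHD1, which breaks deoxynucleotides down and is known to be induced by interferon, rose 2.33-fold, from 8.18 ± 0.047 to 9.40 ± 0.11 (1.22 ± 0.071, adjusted p = 6.22e-10). The classic S-phase subunit RRM2, named after its values were seen, gave 0.07 and did not pass. Of 9 tested genes of chromatin replication, 4 fell (44.4%) and 0 rose, led by the histone chaperone ASF1B (-0.74 ± 0.075, adjusted p = 4.44e-07) and the histone-binding genes RBBP4 (-0.36 ± 0.048) and RBBP7 (-0.34 ± 0.068).

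Of 15 regulators of origin firing, 3 fell (20.0%) and 2 rose (13.3%), both shares below those of all genes, 27.3% and 21.7%. Cyclin E2 (CCNE2) fell with MCM9 and TIMELESS (-0.53 ± 0.068, adjusted p = 7.18e-06), and CDC25A, the phosphatase that activates the S-phase kinase, rose (0.50 ± 0.067, adjusted p = 1.01e-05), as did DBF4, the activating partner of the CDC7 kinase (0.19 ± 0.071, adjusted p = 0.0323). Of 14 further replisome and clamp loader subunits 5 fell (35.7%) and 2 rose (14.3%), led by POLD4, by the nuclease gene EXO1 (0.35 ± 0.077, adjusted p = 0.00125) and by RNASEH2A, which removes RNA from DNA (-0.29 ± 0.056, adjusted p = 0.000386). Of 17 E2F and pocket protein genes 4 fell (23.5%) and 2 rose (11.8%). The activator E2F2 (-0.54 ± 0.096, adjusted p = 0.000189) and the pocket protein gene RBL2 (-0.54 ± 0.065, adjusted p = 3.09e-06) fell, and E2F4, which acts mainly in repressor complexes, rose (0.50 ± 0.065, adjusted p = 7.02e-06). Of 22 mitotic genes 8 rose (36.4%, against 21.7% of all genes) and 4 fell (18.2%, against 27.3%), with a median change of 0.07. The kinetochore motor CENPE (1.25 ± 0.080, adjusted p = 1.91e-09), CENPF (0.39 ± 0.11, adjusted p = 0.00747) and the anaphase activator CDC20 (0.39 ± 0.048, adjusted p = 4.66e-06) rose most. MKI67, the proliferation marker, rose by 0.38 and CCNB2 fell by 0.31, both named after their values were seen. No list was tested as a set, and the difference between the lists was not tested.

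**Figure D5:**
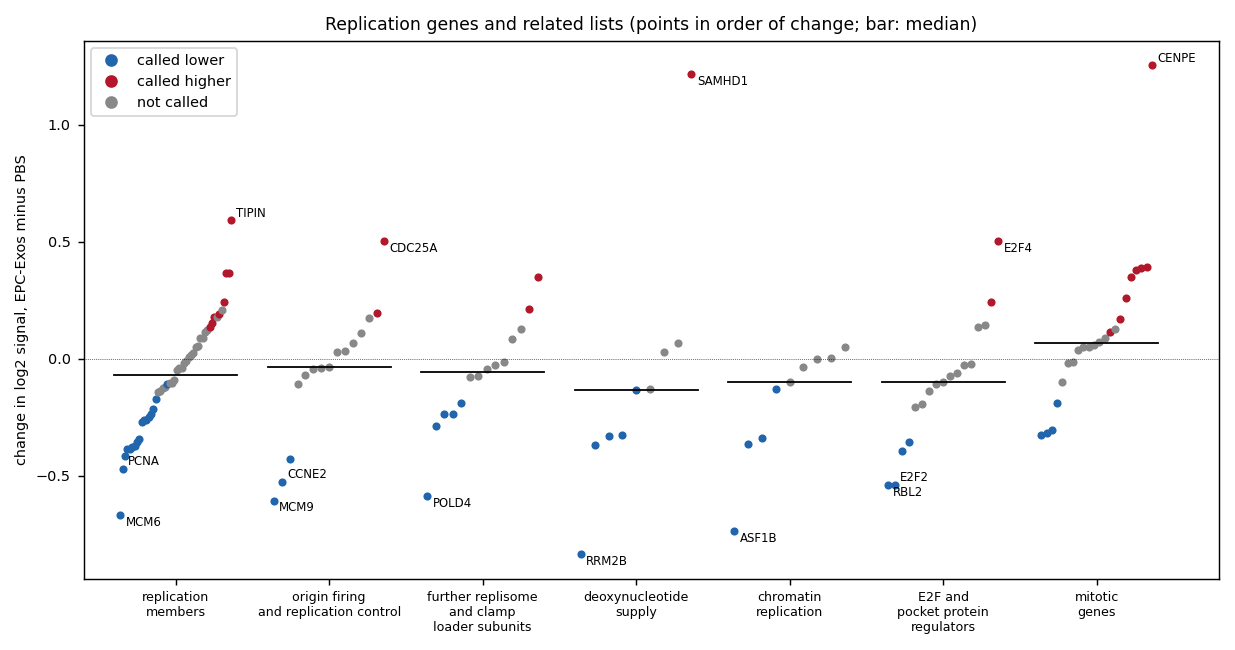
Change in log2 signal, EPC-Exos minus PBS, of the 48 members and of the 86 tested genes of 6 related lists, with points in order of change within a list, bars for the median and names for changes beyond 0.45 in size. Members range from -0.67 (MCM6) to 0.59 (TIPIN); SAMHD1 (1.22) and CENPE (1.25) lie far above the rest of their lists.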

How the data were processed

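Biotin-labelled RNA of 6 HMEC-1 samples was hybridised to Affymetrix arrays. The deposited table holds a log2 signal for each of 49395 probe sets and array; the scale was read from its range, 2.47 to 14.52. MAS5 is named, per the submitters' processing notes, without a role, and background correction and scaling are not given in the sources used here. Deposited scaling was kept. The number of arrays limits precision. Groups came from the sample titles. The platform annotation gave the gene names (44988 with 1 symbol, 1832 with several, 2473 with none, 102 controls). The brightest probe set represented a gene, tested where its mean reached the 40th percentile (5.45). Fits used limma 3.58.1 in R 4.3.3 (lmFit, eBayes with a variance trend, group as the only term) over all 11715 genes, two-sided, with Benjamini-Hochberg adjustment. The fit was tested on simulated data. Members and lists were chosen with earlier results of these data known. Named genes were, per complex, up to 4 called members by size of change (per list, 3), or else the member with the smallest p; other members are accounted for more briefly, and other genes were named after their values were seen. Alternatives were rescaling, offsets of 16 and 64, other filters, probe set choice, no trend, a replicate block, each array left out and the series' 1.5-fold threshold; tests of single probe sets and the use of any promoter window were added after the data were seen.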

Additional observations from a re-analysis of the deposited data

How the results depend on the processing

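Of the 25 called members, 18 (14 lower, 4 higher) kept their call under each of the 16 or 17 alternatives other than the 1.5-fold threshold, and 0 members reversed. The other 7, MCM4, ORC1, ORC6, CDT1, RFC4, PRIM1 and POLD2, lost it under at least 1, and 6 uncalled members gained a call under at least 1. The number of members higher, 8, was 5 without the variance trend and 4 to 7 with an array left out, the lowest without EPC-Exos replicate 2 or 3. Under the series' 1.5-fold threshold 1 member was lower and 1 higher, beside 1159 of all genes (698 lower, 461 higher) and 4 lower and 2 higher among the related lists; that threshold asks for a larger change. The members' median change was -0.034 with the mean of probe sets and -0.0305 without _x_at and _s_at probe sets, which also leaves out ORC1, RFC2, POLE and GINS4; the cause of the shift was not tested. Deviations of same-numbered replicates correlated at 0.20, 0.18 and 0.077, and those of other pairs at -0.19 to 0.022. Every same-numbered value lay above the other pairs, a hint of pairing that the labels do not settle. Deviations were taken from the group mean, so high same-numbered values by themselves push the other pairs down. These correlations are therefore not separate evidence. The main fit did not take the numbers as pairs, and a fit with the replicate block was run beside it. With the replicate block 19 members were lower and 9 higher, MCM8, ORC4 and FEN1 gained a call and 0 lost one. With 3 arrays a group, the smallest called change of a member was -0.11 (RFC4) and the largest that did not pass was 0.21 (MCM8). No member's group mean lay near the control level of 4.97, the lowest being 7.40.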
